A study of Mus musculus with 21 samples.

Results

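Genes for sodium, calcium, HCN and chloride channels were examined in the cortex of mice at 24 h after high-frequency head impact (HF-HI) or a sham procedure. The genes were chosen by their symbols in the GENCODE annotation, as those named Scn, Cacna, Cacnb1 to Cacnb4, Hcn, Clcn, Nalcn, Trpc, Trpm, Trpv, Tpcn or Ano, and the Cacng genes were left out. This gave 37 of the 5544 genes in the table, where 79 protein-coding symbols of the annotation fit the names. The 37 hold 8 of 14 sodium channel genes, 14 of 18 calcium channel genes, 2 of 4 Hcn genes, 5 of 7 Clcn genes, Nalcn, 5 of 23 Trp genes and 2 of 10 Ano genes, and neither Tpcn gene was among them. One of the 37, Trpc4ap, fits by its name only, as it encodes a protein that binds a TRPC channel and forms no channel itself.

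Bulk RNA sequencing was done on 10 sham and 11 HF-HI libraries from male mice with an age of 12 weeks, of the strain C57BL/6 in the labels and C57Bl/6J in the methods, and the labels name no other allele or agent in either group. HF-HI mice received 5 closed-head impacts per day for 6 days under isoflurane, 30 in all, while the sham group had the isoflurane and the handling alone. Whole cortical homogenate was used, so every cell type of the cortex enters each value, and fewer cells of a type and less RNA per cell cannot be told apart. Values are variance-stabilized and lie on a log2 scale, normalized for library size. The number of reads per library is not in the values, so depth is unknown. Each SE and confidence interval below belongs to the difference between the groups, and each SD is the spread between the mice of a group. There was 1 library per mouse.

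Voltage-gated sodium channels carry the rising phase of the action potential. Each has a pore-forming alpha subunit, here Scn1a, Scn2a, Scn3a and Scn8a, and beta subunits that tune gating and anchor the pore. Voltage-gated calcium channels have a pore subunit (Cacna1), which sets the current type, with beta (Cacnb) and alpha2delta (Cacna2d) subunits that bring it to the membrane, and they drive transmitter release, dendritic spikes and calcium signals to the nucleus. HCN channels open on hyperpolarization and damp dendritic inputs, the Clcn genes encode chloride channels and chloride-proton exchangers, and NALCN carries the resting sodium leak.

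Both groups of libraries differed in how their values followed the GC content of genes, and this bears on every gene below. Relative to the mean library, the change in value per 10% of exonic GC content ran from -0.231 to 0.0058 log2 units among the sham libraries and from -0.039 to 0.161 among those of HF-HI. Differences of the channel genes are therefore given as deposited and, where that moves their size or call, also after the GC trend of each library was removed. Removal of the trend would also remove a biological difference that follows GC content, and the 2 cannot be told apart here. No libraries were identical, and by distance over all genes every one of the 21 lay closest to a library of its group. All 6 markers of cortical excitatory neurons and all 5 general neuronal markers listed were measured in all libraries. Of the excitatory markers, 4 were higher in HF-HI and 0 lower, and their summed level ran from 13.0 to 13.4 in sham and from 13.8 to 14.1 in HF-HI. Slc17a7 (0.89), Tbr1 (1.02) and Cux2 (0.57) were among those that rose, as they were with the GC trend removed (0.71, 0.94 and 0.39). Of the general neuronal markers, 4 of 5 were higher. As for other cells, 2 of 5 inhibitory neuron markers were higher and 0 lower, 3 of 7 astrocyte markers higher and 1 lower, 1 of 6 oligodendrocyte markers higher and 0 lower, and of the 2 microglial markers tested 1 was higher and 1 lower. Of the 2 endothelial markers tested 1 was higher, as was 1 of the 2 of oligodendrocyte precursors and the 1 hippocampal marker, and the 1 of choroid plexus was not called. Of all genes, 32.6% were higher and 33.6% lower. After removal of the GC trend, the counts higher and lower were 5 and 0 for excitatory, 4 and 0 for general neuronal, 2 and 0 for inhibitory, 2 and 2 for astrocyte, 1 and 2 for oligodendrocyte, 0 and 1 for microglial, 1 and 0 for endothelial, 0 and 1 for precursor and 0 and 0 for hippocampal and choroid plexus markers (29.2% and 31.0% of all genes). The part of these markers in the channel results was not tested.

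With limma's moderated test and Benjamini-Hochberg adjustment over all genes, 23 of the 37 channel genes (62.2%) had an adjusted p under 0.05, where 66.3% of all 5544 genes did. Of the 23, 13 genes were higher in HF-HI (35.1%, against 32.6% of all genes) and 10 were lower (27.0%, against 33.6%). The median difference over the 37 genes was 0.04 on the log2 scale and -0.0007 with the GC trend removed, and over all genes it was -0.009 and -0.010. The median value of a library was on average 0.05 higher in HF-HI, more than the median of the 37. With library medians centred, the split was 10 higher and 13 lower. With the GC trend removed, 20 of the 37 were called (54.1%, against 60.2% of all 5539 genes with a GC value), 11 higher (29.7%, against 29.2%) and 9 lower (24.3%, against 31.0%). The counts are thus near those of the table, but the genes behind them changed. Only 9 of the 37 (24.3%) were called in the same direction in both fits, where 47.8% of all genes were. These were Scn8a, Cacna1a, Cacna1c, Cacna1g, Cacnb3 and Clcn6, which were higher, and Scn2a, Clcn4 and Trpc1, which were lower. The groups did not overlap for 1 channel gene (2.70%), Trpc1, where they did not overlap for 13.5% of all genes.

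**Figure D1:**
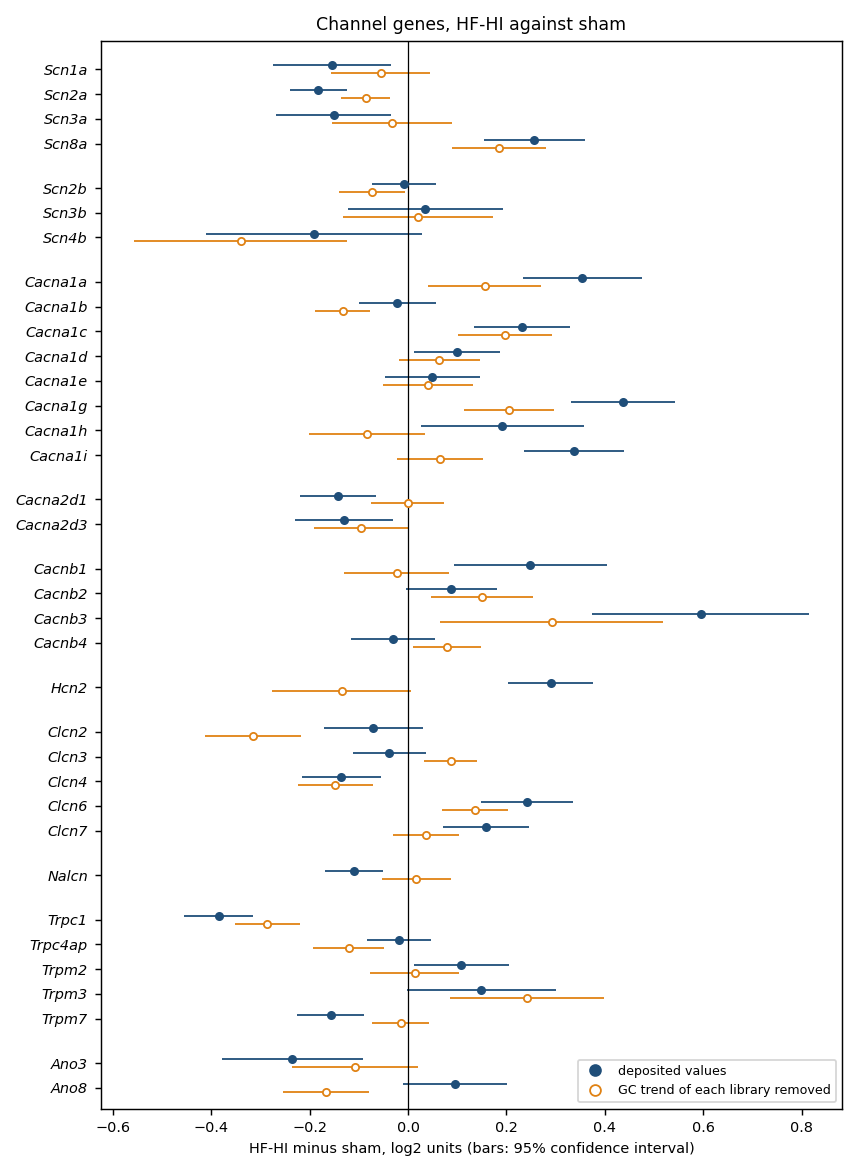
Difference between HF-HI and sham (x axis, log2 units) for the channel genes described here, grouped by family, with points for the estimate and bars for the 95% confidence interval, filled for the deposited values and open after removal of the GC trend of each library. Cacnb3 (0.59) and Trpc1 (-0.38) lie at the ends, and Hcn2, Cacna1h, Cacnb1 and Ano8 stand on opposite sides of 0 in the 2 fits.

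Direction followed GC content among the channel genes. Of the 18 with at least 50% exonic GC, 11 were higher, 0 lower and 7 not called, and of the 19 under 50%, 2 were higher, 10 lower and 7 not called. The table as a whole went the same way, with 54.8% higher and 15.1% lower of its 2061 genes at or over 50% and 19.6% higher and 44.5% lower of its 3478 genes under 50%. Spearman's rho between the difference and exonic GC content was 0.672 across the 37 genes and 0.480 across all genes, which share the same libraries and are not independent. After removal of the trend, rho was -0.147 across the 37, with 5 higher and 6 lower among the GC-rich genes and 6 higher and 3 lower among the others, where 33.3% and 33.6% of all GC-rich genes and 26.9% and 29.4% of the others were.

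**Figure D2:**
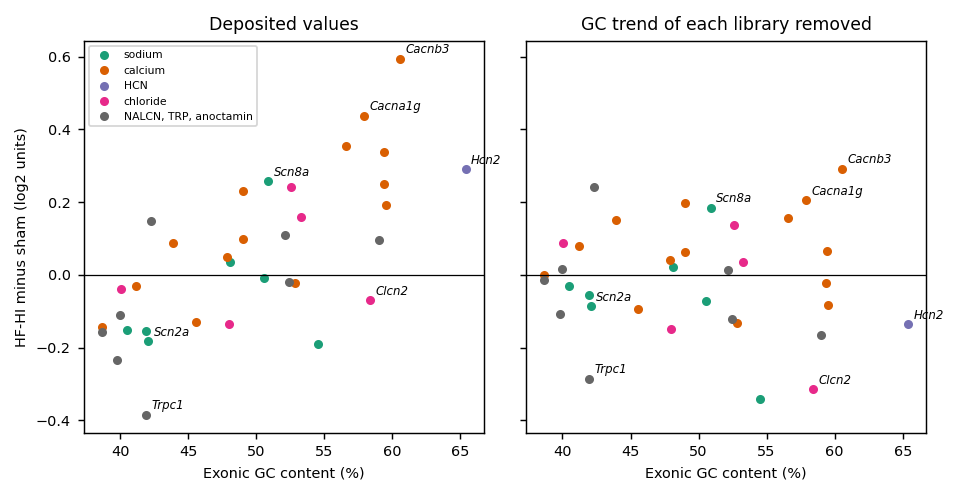
Difference between HF-HI and sham (y axis, log2 units) against exonic GC content (x axis, %) for the channel genes described here, colored by family, for deposited values (left) and after removal of the GC trend of each library (right). On the left the differences tend to rise with GC content (rho = 0.672), and Trpc1 (41.9% GC) has the lowest and Cacnb3 (60.5% GC) the highest difference. GC content itself runs from 38.6% to 65.4%. On the right no such rise is seen (rho = -0.147).

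Among pore-forming sodium channels, Scn2a fell and Scn8a rose in HF-HI. Scn2a encodes the channel of the axon initial segment and of unmyelinated axons of excitatory neurons, and Scn8a the main channel of nodes of Ranvier and of the distal initial segment. Scn2a lies on chr2:65620771-65767447 (plus strand) and Scn8a on chr15:100869858-101045938 (plus strand, GRCm38), and neither overlaps another annotated gene. RefSeq promoters, which run from 250 bases before to 50 bases after a start, were found for 29 of the 37 genes on GRCm38.p6. Those at the farthest upstream start of Scn2a and Scn8a are shown because the 2 genes moved in opposite directions, and that of Trpc1 because its groups did not overlap. They read 5′ to 3′ on the strand of the gene, at chr2:65620519-65620818 (plus), chr15:100870395-100870694 (plus) and chr9:95750299-95750598 (minus), and capitals mark each CG dinucleotide.
Scn2a: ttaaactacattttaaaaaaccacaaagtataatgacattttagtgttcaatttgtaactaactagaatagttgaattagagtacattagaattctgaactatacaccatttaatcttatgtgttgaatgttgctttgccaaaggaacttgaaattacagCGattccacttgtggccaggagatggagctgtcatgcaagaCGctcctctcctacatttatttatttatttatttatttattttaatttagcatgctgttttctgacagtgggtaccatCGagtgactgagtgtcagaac
Scn8a: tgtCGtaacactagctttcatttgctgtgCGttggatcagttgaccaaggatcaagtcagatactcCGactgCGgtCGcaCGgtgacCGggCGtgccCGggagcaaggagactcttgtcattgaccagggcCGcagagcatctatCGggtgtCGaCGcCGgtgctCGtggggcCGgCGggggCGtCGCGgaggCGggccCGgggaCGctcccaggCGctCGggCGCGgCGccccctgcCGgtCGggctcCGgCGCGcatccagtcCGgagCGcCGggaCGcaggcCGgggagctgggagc
Trpc1: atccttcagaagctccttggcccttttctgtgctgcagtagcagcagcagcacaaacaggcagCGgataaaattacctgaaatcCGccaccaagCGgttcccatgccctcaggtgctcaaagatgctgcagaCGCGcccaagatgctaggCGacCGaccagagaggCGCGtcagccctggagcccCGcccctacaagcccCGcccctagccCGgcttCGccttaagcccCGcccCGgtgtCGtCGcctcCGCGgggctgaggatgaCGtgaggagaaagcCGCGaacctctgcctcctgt

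The Scn2a window holds 3 CG dinucleotides at 33% GC, that of Scn8a 38 at 70% GC and that of Trpc1 22 at 63% GC, where the median of all 32851 promoters of this length is 7. The GC box GGGCGG, searched on both strands, occurs 0 times in the Scn2a and Scn8a windows and 3 times in that of Trpc1. It was found in 19 of the 44 starts of the channel genes (43.2%) and in 35.7% of all promoters. The CRE core TGACG, also searched on both strands, occurs in 16 of the 44 starts (36.4%), in 20.8% of all promoters and 2 times in the Trpc1 window. The counts describe these windows and test nothing.

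In sham, Scn2a values ran from 13.58 to 13.74 with a median of 13.68, and in HF-HI from 13.41 to 13.63 with a median of 13.47. The value was below all sham libraries in 10 of 11 HF-HI libraries. HF-HI replicate 9 was the exception, at 13.63. The difference was -0.18 (SE 0.0282, adjusted p = 7.19e-06) and -0.09 with the GC trend removed (adjusted p = 0.00371). Scn8a ran from 12.49 to 12.95 in sham (median 12.75) and from 12.89 to 13.17 in HF-HI (median 13.01). In 6 of 11 HF-HI libraries it was above all sham libraries, and all 11 were above the sham median. Its difference was 0.26 (SE 0.0495, adjusted p = 9.88e-05), and 0.18 with the GC trend removed (adjusted p = 0.00142).

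Scn1a, the main sodium channel of fast-spiking inhibitory neurons, and Scn3a, used mostly in the developing brain, were also lower as deposited. Scn1a ran from 12.44 to 12.98 in sham (median 12.71) and from 12.42 to 12.80 in HF-HI (median 12.52), with 10 of 11 HF-HI libraries below the sham median. The difference was -0.15 (SE 0.0580, adjusted p = 0.0229). Without sham replicate 4, the highest library, it was -0.12 and no longer past the threshold (adjusted p = 0.0501). Scn3a differed by the same -0.15 (adjusted p = 0.0215). With the GC trend removed, neither was past the threshold, at -0.06 (adjusted p = 0.333) for Scn1a and -0.03 (adjusted p = 0.654) for Scn3a.

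Among the sodium channel beta subunits, Scn2b and Scn3b were not called in either fit. Scn2b differed by -0.008 and Scn3b by 0.04, with 95% confidence intervals of -0.07 to 0.06 and -0.12 to 0.19. Removal of the GC trend put them at -0.07 (adjusted p = 0.0566) and 0.02 (adjusted p = 0.824). Of the 8 genes of the sodium family, 1 was higher and 3 lower both as deposited (32.6% and 33.6% of all genes) and with the GC trend removed (29.2% and 31.0%), but of the lower genes only Scn2a was shared.

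Scn4b, whose subunit gives the resurgent sodium current and which is abundant in striatal neurons, had 1 library far below the others. Its values ran from 11.70 to 12.24 in sham (median 11.85) and from 10.91 to 12.14 in HF-HI (median 11.78). HF-HI replicate 3 was at 10.91, and the other HF-HI libraries were between 11.51 and 12.14. The difference was -0.19 (adjusted p = 0.116), and -0.11 without that library (adjusted p = 0.212). With the GC trend removed it was -0.34 (adjusted p = 0.00737), and -0.26 without HF-HI replicate 3 (adjusted p = 0.00343). The striatal markers were lowest of all 21 libraries in that same mouse, with Drd1 at 8.76, Adora2a at 7.97 and Ppp1r1b at 9.99, where sham libraries had at least 9.79, 8.50 and 10.3. Their part in the Scn4b values was not tested.

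Of the 8 calcium channel pore genes, 6 were higher, 0 lower and 2 not called as deposited, where 32.6% of all genes were higher. With the trend removed 3 were higher, 1 lower and 4 not called, where 29.2% of all genes were higher and 31.0% lower. The gene with the largest difference among them was Cacna1g, a T-type channel that opens at low voltage and supports burst firing (chr11:94408391-94474198, minus strand). Cacna1g ran from 9.41 to 9.77 in sham (median 9.53) and from 9.77 to 10.18 in HF-HI (median 10.02). All but 1 of the HF-HI libraries were above every sham library. The difference was 0.44 (SE 0.0512, adjusted p = 1.77e-07), and 0.21 with the GC trend removed (adjusted p = 0.00035).

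Cacna1a, the P/Q-type channel of most fast synapses, ran from 10.82 to 11.18 in sham (median 11.01) and from 11.09 to 11.54 in HF-HI (median 11.40). In 9 of 11 HF-HI libraries it was above all sham libraries. The difference was 0.35 (SE 0.0587, adjusted p = 1.67e-05) and 0.16 with the GC trend removed (adjusted p = 0.0189). Cacna1b, the N-type channel that shares presynaptic terminals with it, was at 11.1 in both groups, a difference of -0.02 (adjusted p = 0.620). With the trend removed it was lower, at -0.13 (adjusted p = 0.00019). Cacna1e, the R-type channel, differed by 0.05 (95% confidence interval -0.05 to 0.15) and was not called in either fit.

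Cacna1c, the main L-type channel of cortical neurons and the entry for calcium signals to transcription, moved little when the GC trend was removed. It ran from 9.59 to 9.90 in sham (median 9.75) and from 9.79 to 10.15 in HF-HI (median 9.97), and 9 of 11 HF-HI libraries were above all sham libraries. The difference was 0.23 (SE 0.0475, adjusted p = 0.000187) and 0.20 with the GC trend removed (adjusted p = 0.000786). Cacna1d, the other L-type gene, ran from 9.60 to 9.90 in sham (median 9.73) and from 9.68 to 10.03 in HF-HI (median 9.86), and differed by 0.10 (adjusted p = 0.0439). It was past the threshold in 7 of the 21 fits that left out 1 library, with adjusted p between 0.0189 and 0.0896, and was not called with the GC trend removed (0.06, adjusted p = 0.170).

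The other T-type genes depended on the GC trend. Cacna1i ran from 10.37 to 10.80 in sham (median 10.54) and from 10.75 to 11.09 in HF-HI (median 10.90), with 9 of 11 HF-HI libraries above all sham libraries. Its difference was 0.34 (adjusted p = 3.68e-06), but 0.06 with the trend removed (adjusted p = 0.194). Cacna1h ran from 8.69 to 9.30 in sham (median 8.90) and from 8.82 to 9.45 in HF-HI (median 9.19). It differed by 0.19 (adjusted p = 0.0383), was past the threshold in 9 of the 21 fits that left out 1 library (adjusted p from 0.0123 to 0.0787), and turned to -0.08 with the trend removed (adjusted p = 0.206).

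Among calcium channel beta subunits, Cacnb3 had the largest difference of all 37 genes as deposited, but not with the GC trend removed, where Scn4b and Clcn2 differed by more. It lies on chr15:98630840-98644529 (plus strand), overlaps no other annotated gene, and encodes a subunit found in brain with N-type and L-type pores. Cacnb3 ran from 8.64 to 9.72 in sham (median 9.41) and from 9.65 to 10.25 in HF-HI (median 9.94). In 10 of 11 HF-HI libraries it was above all sham libraries, and sham replicates 1 and 2 were the lowest, at 8.83 and 8.64. The difference was 0.59 (SE 0.106, adjusted p = 4.14e-05). It lay between 0.52 and 0.64 in the fits that left out 1 library, and was 0.29 with the GC trend removed (adjusted p = 0.0248).

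Cacnb1 ran from 9.003 to 9.71 in sham (median 9.41) and from 9.31 to 9.84 in HF-HI (median 9.54). It was higher by 0.25 as deposited (adjusted p = 0.00596) and at -0.02 with the GC trend removed (adjusted p = 0.709). Cacnb2 and Cacnb4, whose exons are GC-poor, went the other way. Cacnb2 ran from 8.99 to 9.39 in sham (median 9.15) and from 9.13 to 9.40 in HF-HI (median 9.26). It moved from 0.09 (adjusted p = 0.0841) to 0.15 (adjusted p = 0.0123) when the trend was removed, and Cacnb4 from -0.03 (adjusted p = 0.524) to 0.08 (adjusted p = 0.0451). Without HF-HI replicate 3, Cacnb2 passed as deposited (0.10, adjusted p = 0.0487), and Cacnb4 did not pass with the trend removed (0.08, adjusted p = 0.0667). Without sham replicate 9, Cacnb2 also passed as deposited, at 0.11.

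The alpha2delta genes were lower as deposited. Cacna2d1, the binding site of gabapentin, ran from 12.39 to 12.61 in sham (median 12.50) and from 12.23 to 12.50 in HF-HI (median 12.35), with all 11 HF-HI libraries below the sham median. Its difference was -0.14 (adjusted p = 0.00183), and -0.0007 with the GC trend removed (adjusted p = 0.988). Cacna2d3 ran from 10.69 to 10.98 in sham (median 10.78) and from 10.45 to 10.89 in HF-HI (median 10.68). It was lower, at -0.13 (adjusted p = 0.0200) and at -0.09 with the trend removed (adjusted p = 0.0805). For the calcium family as a whole, 8 genes were higher and 2 lower as deposited, and 6 were higher and 1 lower of the 14 with the trend removed. Over all genes 32.6% were higher and 33.6% lower as deposited, and 29.2% and 31.0% with the trend removed.

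**Figure D3:**
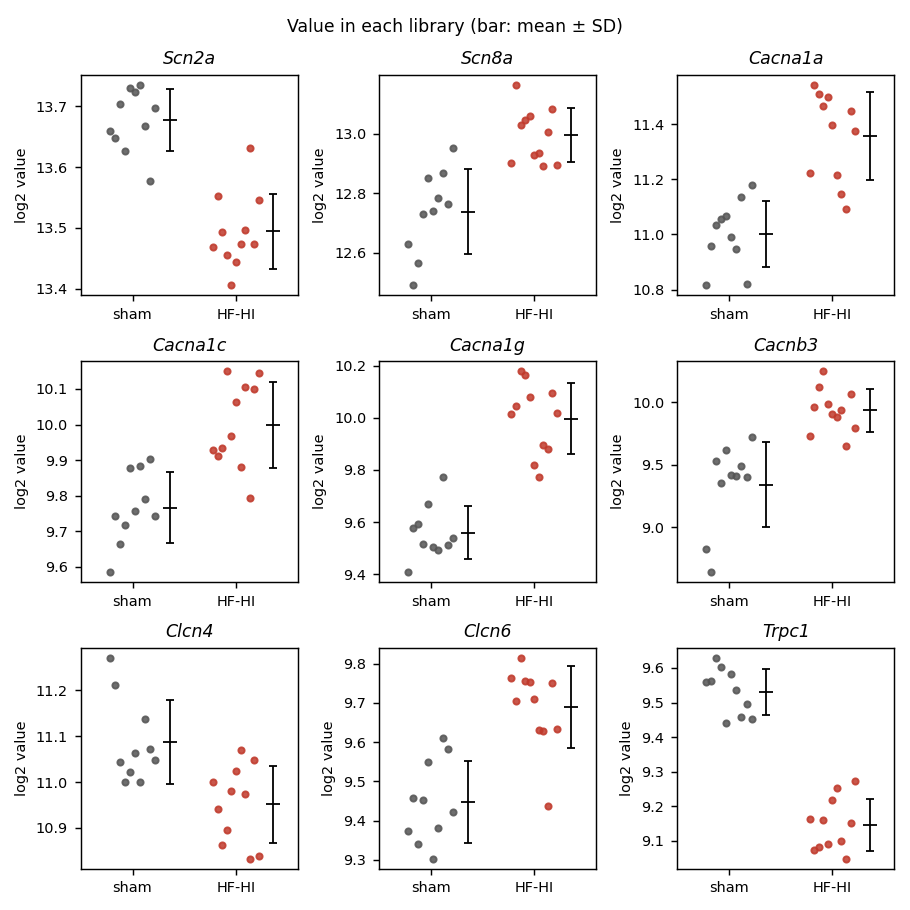
Variance-stabilized value (y axis, log2 units) in each of 10 sham and 11 HF-HI libraries for the 9 channel genes called in the same direction with and without the GC trend, where points are libraries and bars the mean ± SD of a group. The groups are separate for Trpc1, and only 1 or 2 HF-HI libraries lie within the sham range for Scn2a, Cacna1a, Cacna1c, Cacna1g, Cacnb3 and Clcn6.

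The call of Hcn2, which encodes an HCN channel of many brain cells and has 65.4% exonic GC, turned on the GC trend. It ran from 9.72 to 10.12 in sham (median 9.85) and from 10.09 to 10.28 in HF-HI (median 10.15), and 9 of 11 HF-HI libraries were above all sham libraries. The difference was 0.29 (adjusted p = 3.38e-06), and -0.14 with the trend removed (adjusted p = 0.0929).

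Of the Clcn genes, 2 were higher, 1 lower and 2 not called as deposited, and 2 were higher and 2 lower with the GC trend removed. Of all genes, 32.6% were higher and 33.6% lower, and 29.2% and 31.0% with the trend removed. Clcn6, an exchanger of late endosomes, rose from a sham range of 9.30 to 9.61 (median 9.44) to an HF-HI range of 9.44 to 9.81 (median 9.71). In 10 of 11 HF-HI libraries it was above all sham libraries, HF-HI replicate 9 being the exception. The difference was 0.24 (adjusted p = 6.54e-05), and 0.14 with the GC trend removed (adjusted p = 0.000942). Clcn7, the lysosomal exchanger, ran from 8.42 to 8.79 in sham (median 8.65) and from 8.63 to 8.91 in HF-HI (median 8.80), with 8 of 11 HF-HI libraries above all sham libraries. It was higher by 0.16 (adjusted p = 0.00237) but by 0.04 with the trend removed (adjusted p = 0.345).

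Clcn4, an exchanger of endosomes, was lower, with values from 11.0001 to 11.27 in sham (median 11.06) and from 10.83 to 11.07 in HF-HI (median 10.97). In 7 of 11 HF-HI libraries it was below all sham libraries. The difference was -0.14 (adjusted p = 0.00399), and -0.15 with the trend removed (adjusted p = 0.00153). Clcn2, the chloride channel of the plasma membrane, was not called as deposited (-0.07, adjusted p = 0.202) and was lower, at -0.31 with the trend removed (adjusted p = 5.28e-06). It was also called lower with library medians centred, at -0.12. Clcn3, an exchanger of endosomes and synaptic vesicles, went from -0.04 as deposited (adjusted p = 0.360) to 0.09 with the trend removed (adjusted p = 0.00618). With library medians centred Clcn3 was instead called lower, at -0.09, so the direction of its call depended on the scaling. Nalcn, the sodium leak channel, ran from 10.89 to 11.06 in sham and from 10.72 to 10.93 in HF-HI, with 7 of 11 HF-HI libraries below all sham libraries. It was lower, at -0.11, as deposited (adjusted p = 0.00179) and at 0.02 with the trend removed (adjusted p = 0.687).

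Trpc1 was the channel gene with the clearest separation of the groups. It encodes a subunit of receptor-operated and store-linked cation channels, and lies on chr9:95705082-95750375 (minus strand) with no overlapping gene. Values ran from 9.44 to 9.63 in sham (median 9.55) and from 9.05 to 9.27 in HF-HI (median 9.15), so that all 11 HF-HI libraries were below all 10 sham libraries. The difference was -0.38 (SE 0.0338, adjusted p = 3.51e-09), so that the level dropped by 23.4% if the scale is read as log2. It was -0.29 with the GC trend removed (adjusted p = 1.16e-07). It lay between -0.40 and -0.37 in the fits that left out 1 library.

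Trpm7, a channel fused to a kinase that carries magnesium and zinc, ran from 10.11 to 10.31 in sham (median 10.23) and from 9.94 to 10.21 in HF-HI (median 10.05), with 8 of 11 HF-HI libraries below all sham libraries. The difference was -0.16 (adjusted p = 0.000251), and -0.02 with the GC trend removed (adjusted p = 0.650). Trpm2, a channel opened by oxidative stress, ran from 8.61 to 8.88 in sham (median 8.72) and from 8.55 to 8.99 in HF-HI (median 8.88). It was higher by 0.11 (adjusted p = 0.0449), but with library medians centred it was at 0.06 and not called. Of the 21 fits without 1 library, it was called in 6 (adjusted p from 0.00308 to 0.0842) and was at 0.01 with the trend removed (adjusted p = 0.802). Trpc4ap, which is no channel, differed by -0.02 (adjusted p = 0.607), and by -0.12 with the trend removed (adjusted p = 0.00502).

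Trpm3, a heat-activated channel also found in choroid plexus, ran from 8.90 to 9.38 in sham (median 9.11) and from 9.06 to 9.80 in HF-HI (median 9.23). HF-HI replicate 3 held the value of 9.80, and the next HF-HI library was at 9.41. The choroid plexus transcript Ttr was at 13.3 in that library, where sham libraries ran from 6.16 to 11.5. The difference of Trpm3 was 0.15 (adjusted p = 0.0763), and 0.09 without HF-HI replicate 3 (adjusted p = 0.132). With the GC trend removed it was 0.24 (adjusted p = 0.00856), and 0.19 without that library (adjusted p = 0.00757). It passed as deposited without sham replicate 4 (0.18) and without HF-HI replicate 10 (0.17). The part of choroid plexus RNA was not tested.

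Ano3, an anoctamin abundant in striatum, ran from 11.84 to 12.29 in sham (median 12.07) and from 11.42 to 12.23 in HF-HI (median 11.86). The lowest was again HF-HI replicate 3. The difference was -0.24 (adjusted p = 0.00485), -0.19 without that library (adjusted p = 0.00654), and -0.11 with the GC trend removed (adjusted p = 0.138), or -0.06 with both (adjusted p = 0.267). As deposited, 1 of the 3 striatal markers tested was lower, namely Drd1 at -0.36 (adjusted p = 0.00694), and Adora2a and Ppp1r1b were not called (adjusted p = 0.564 and 0.449). With the GC trend removed, a fit in which Scn4b was called, 2 of the 3 markers were lower. Drd1 was at -0.33 (adjusted p = 0.0132) and Adora2a at -0.35 (adjusted p = 0.0111), while Ppp1r1b was at -0.16 (adjusted p = 0.176). The summed level of the 3 ran from 11.3 to 11.7 in sham and from 10.7 to 12.0 in HF-HI. Ano8, which tethers the endoplasmic reticulum to the plasma membrane, ran from 8.63 to 8.995 in sham (median 8.70) and from 8.62 to 8.98 in HF-HI (median 8.84). It went from 0.10 (adjusted p = 0.101) to -0.17 with the trend removed (adjusted p = 0.00157). As deposited it passed without sham replicate 8 and without HF-HI replicate 2, at 0.12 in each fit.

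**Figure D4:**
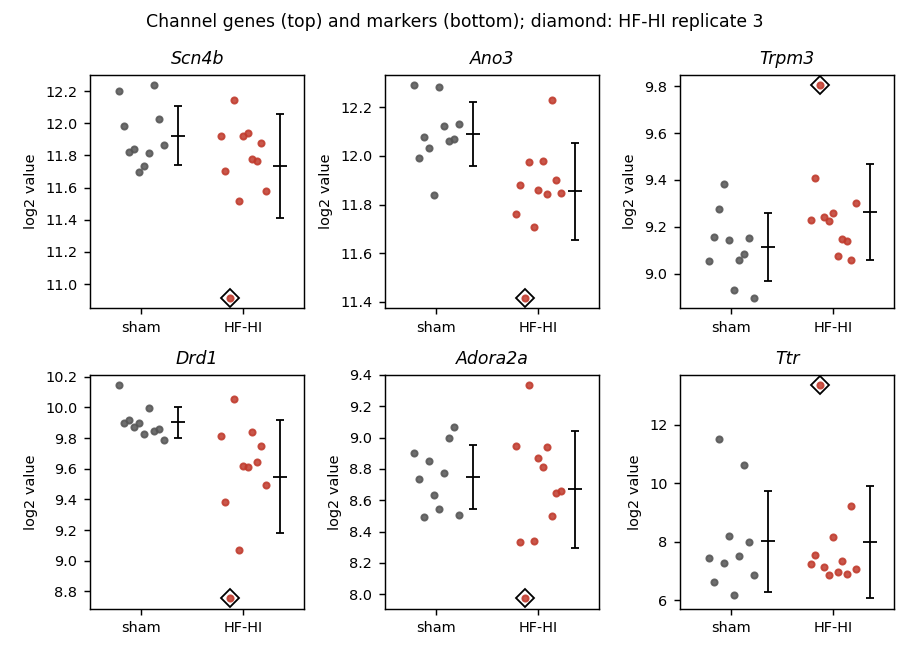
Values in each library (y axis, log2 units) of Scn4b, Ano3 and Trpm3 (top row) and of the striatal markers Drd1 and Adora2a and the choroid plexus marker Ttr (bottom row), with bars for the mean ± SD of 10 sham and 11 HF-HI libraries. The diamond marks HF-HI replicate 3, which is lowest in Scn4b (10.91), Ano3 (11.42), Drd1 (8.76) and Adora2a (7.97) and highest in Trpm3 (9.80) and Ttr (13.3).

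A further library stood apart among the channel genes. HF-HI replicate 9 was the lowest HF-HI library for 16 and the highest for 8 of the 37 genes, and its GC slope of -0.039 was the only negative one among HF-HI libraries. Without it, 12 channel genes were higher and 10 lower, and without HF-HI replicate 3, 11 and 10.

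Whether related channels moved apart was asked within each library, as the difference between 2 genes, which cancels any shift common to both. The pairs use the same values as the single genes above, so they restate those differences and are no independent support for them. Of 19 pairs listed, 16 had both genes in the table. In a two-sided permutation test with 100000 resamples, 8 of the 16 changed between the groups at an adjusted p under 0.05, 11 did with the GC trend removed, and 5 did so in both with the same direction. How often other pairs of genes in the table would pass, or not overlap, was not tested. Of all single genes, 66.3% were called as deposited, 60.2% were with the trend removed, and 13.5% did not overlap. The counts therefore do not set related channels apart from other genes. Scn2a minus Scn8a gave the only pair without overlap. It ran from 0.74 to 1.16 in sham and from 0.35 to 0.65 in HF-HI, a change of -0.44 (95% confidence interval -0.55 to -0.33, adjusted p = 0.00048), and of -0.27 with the GC trend removed (adjusted p = 0.00096). The difference was smaller in every HF-HI library than in any sham library.

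Scn1a minus Scn8a fell from -0.05 ± 0.253 (SD, n = 10) to -0.46 ± 0.138 (SD, n = 11), a change of -0.41 (permutation test, adjusted p = 0.00152) and of -0.24 with the trend removed (adjusted p = 0.0127). Scn1a and Scn2a, neighbours on chromosome 2 with nearly the same GC content, did not part detectably, with a change of 0.03 (95% confidence interval -0.10 to 0.16). Cacna1a minus Cacna1b rose by 0.38, from -0.10 to 0.28 (adjusted p = 0.00048), and by 0.29 with the trend removed (adjusted p = 0.00171). The difference ran from -0.37 to 0.13 in sham and from 0.11 to 0.46 in HF-HI, so the groups overlapped only between 0.11 and 0.13.

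The change of Cacna1h against Cacna1g was -0.25 (permutation test, adjusted p = 0.0208), and -0.29 with the trend removed (adjusted p = 0.0071). Trpm3 rose against Trpm7 by 0.31 (adjusted p = 0.00179), and by 0.26 with the trend removed (adjusted p = 0.0071). Cacnb2 minus Cacnb3 changed by -0.51 (adjusted p = 0.00064), and by -0.14 with the trend removed (adjusted p = 0.313). The change of Cacnb1 minus Cacnb4 was 0.28 (adjusted p = 0.0392), past the threshold in 11 of the 21 sets that left out 1 library, and turned to -0.10 with the trend removed (adjusted p = 0.155). Other pairs of near-equal GC content did not pass as deposited, namely Cacna1c minus Cacna1d (0.13, adjusted p = 0.0749), Cacna1g minus Cacna1i (0.10, adjusted p = 0.104) and Clcn6 minus Clcn7 (0.08, adjusted p = 0.0538). With the trend removed, Cacna1g minus Cacna1i (0.14, adjusted p = 0.0268) and Clcn6 minus Clcn7 (0.10, adjusted p = 0.0231) passed, and Cacna1c minus Cacna1d did not (0.13, adjusted p = 0.0622). As deposited, Clcn6 minus Clcn7 passed in 7, Cacna1c minus Cacna1d in 3 and Cacna1g minus Cacna1i in 1 of the 21 sets that left out 1 library.

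**Figure D5:**
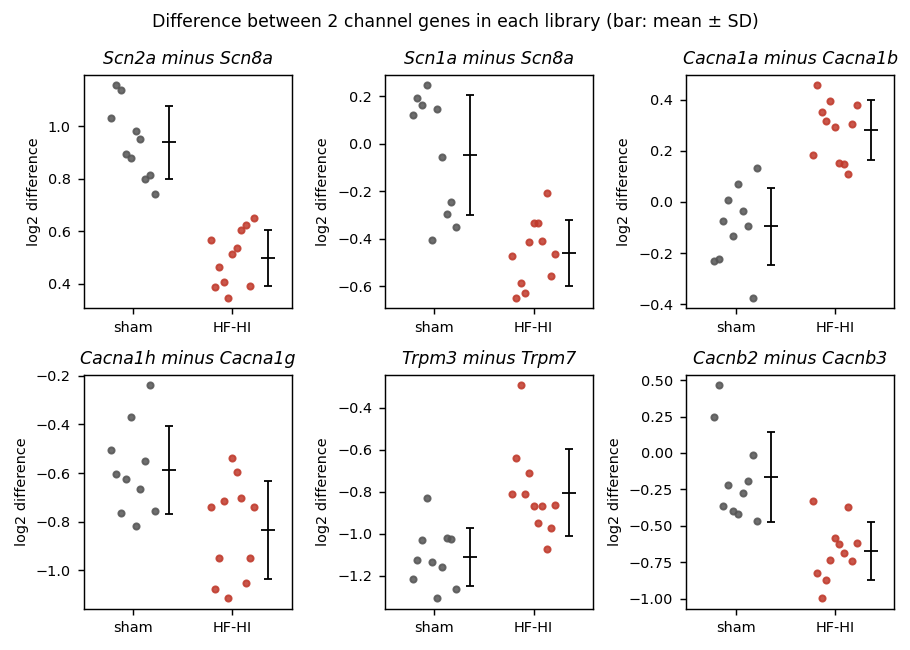
Difference between the values of 2 channel genes (y axis, log2 units) in each library for 6 pairs, where points are libraries and bars the mean ± SD of 10 sham and 11 HF-HI libraries. Scn2a minus Scn8a runs from 0.74 to 1.16 in sham and from 0.35 to 0.65 in HF-HI, and the other 5 pairs overlap.

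Levels were compared between genes per kilobase of exon, as the log2 value minus the log2 of the exonic length. In sham, Cacnb4 (10.01) and Scn2a (10.01) were among the highest on this scale, and Trpm3 was the lowest of the 37 (4.50). Among sodium channel pores the order was Scn2a, Scn1a (9.21), Scn8a (8.76) and Scn3a (6.72). Among calcium channel pores it was Cacna1e (7.94), Cacna1b (7.78), Cacna1a (7.49), Cacna1i (7.26), Cacna1g (6.22), Cacna1d (6.09), Cacna1h (5.68) and Cacna1c (5.36). Exonic length is the union over all transcripts of a gene, so genes with long rare exons appear lower.

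Genes that work with these channels were also counted, from 6 lists, where 32.6% of all genes were higher and 33.6% lower as deposited, and 29.2% and 31.0% with the GC trend removed. Of 12 sodium channel partners and proteins of the axon initial segment, 5 were higher, 5 lower and 2 not called, and 6 were higher and 4 lower with the trend removed. The largest as deposited were Sptbn4 (0.57, adjusted p = 6.13e-07), the spectrin of the initial segment and nodes, and Nfasc (0.41, adjusted p = 6e-06), the adhesion molecule that clusters channels there. Both passed with the GC trend removed (0.20 and 0.29). Of 16 calcium channel partners, 8 were higher, 6 lower and 2 not called, against 7 higher and 4 lower with the trend removed. The largest as deposited was the syntaxin Stx1a (0.90, adjusted p = 5.67e-08), which binds presynaptic calcium channels and fuses vesicles, and it stayed past the threshold with the trend removed (0.63).

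Among 3 HCN partners, 1 was higher and 2 lower in both fits. Pex5l, the TRIP8b subunit that sets HCN trafficking, was lower, at -0.28 (adjusted p = 5.31e-05) and at -0.26 with the GC trend removed, and the ubiquitin ligase Nedd4l was higher by 0.13 (adjusted p = 0.00513) and by 0.12 with the trend removed. Of 10 genes of chloride transport and its partners, 2 were higher, 5 lower and 3 not called, and with the trend removed 3 were higher and 4 lower. Wnk2, a chloride-sensing kinase, was higher by 0.79 (adjusted p = 8.15e-09) and by 0.49 with the trend removed (adjusted p = 7.62e-08), and Slc12a5, the neuronal chloride exporter, by 0.34 (adjusted p = 1.03e-06), which fell to 0.10 with the trend removed (adjusted p = 0.00300). Of 7 genes of TRP signaling and store-operated entry, 0 were higher and 4 lower, and 0 and 3 with the trend removed. The largest differences as deposited were those of Plcb4 (-0.27, adjusted p = 0.00382), a phospholipase upstream of TRPC channels, and Orai2 (-0.15, adjusted p = 0.0144), a store-operated channel, and with the trend removed they were -0.23 (adjusted p = 0.00915) and -0.28 (adjusted p = 6.74e-06). Of 3 genes of the NALCN complex, Unc79 was higher by 0.11 (adjusted p = 0.00672), and by 0.13 with the trend removed (adjusted p = 0.00151), and Unc80 and Fam155a were not called in either fit.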

How the data were processed

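The authors made stranded total RNA libraries from cortex after ribosomal RNA removal, aligned reads to mm10 with STAR, counted per transcript with eXpress and normalized with DESeq2; the versions of STAR and eXpress and the gene annotation used are not given in the sources used here. The deposited values are variance-stabilized log2 values for 5544 Ensembl genes in 21 libraries, 1 per mouse, so no count model was fitted, although the authors tested counts. All columns matched a library by name. Whether counting used strand is not given in the sources used here, and 25 of the 37 channel genes overlap another annotated gene.

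Symbols, positions and exonic GC content came from GENCODE M21 (GRCm38, the assembly of mm10), and promoters from RefSeq. HF-HI was tested against sham in R 4.3.3 with limma 3.58.1 (lmFit, eBayes with trend, two-sided, Benjamini-Hochberg over all genes, adjusted p under 0.05). The GC trend of each library was removed with a lowess curve of span 0.3 over 5539 genes. Gene pairs were tested with 100000 permutations of the groups, adjusted over 16 pairs. The fit was checked on simulated data. Other steps used Python 3.11.15 with pandas 2.3.3, scipy 1.17.1, numpy 2.4.6 and, for plots, matplotlib 3.10.9.

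Some genes of the table count in the totals but are not reported here by name. Values per library are given for genes whose groups do not overlap, for the 3 with the largest difference in each family and for others whose call turned on 1 library, and those with the largest differences, at most 2, are named in each list of partners. Members and lists were chosen with earlier results of these data known.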

Additional observations from a re-analysis of the deposited data

How the results depend on the processing

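Counts of channel genes moved most with a minimum absolute difference of 0.25, to 6 higher and 1 lower (13 and 10 without it), to 0 lower sodium channel genes, and to 4 higher and 0 lower calcium channel genes. Calcium channel genes were 6 higher and 1 lower with the GC trend removed, and 5 higher and 2 lower with the GC trend removed and a replicate block. They were 5 higher and 1 lower with the trend removed and without HF-HI replicate 3, a setting chosen after seeing the data. Over the threshold of 0.1, eBayes without trend, the Wilcoxon rank-sum test, library medians centred, quantile normalization, the replicate block and the table without its lowest 0.25 of genes by mean value, 10 to 15 channel genes were higher and 9 to 13 lower.

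Removal of the GC trend turned the direction of the genes that follow, and the cause was not tested beyond that removal. With the trend removed alone, then with a replicate block, then without HF-HI replicate 3, the differences were -0.084, -0.10 and -0.083 for Cacna1h, -0.023, -0.026 and -0.028 for Cacnb1, 0.079, 0.085 and 0.076 for Cacnb4, -0.14, -0.15 and -0.12 for Hcn2, 0.087, 0.089 and 0.091 for Clcn3, 0.017, 0.020 and 0.015 for Nalcn and -0.17, -0.16 and -0.17 for Ano8. Among the pairs, Cacnb1 minus Cacnb4 (-0.10) and Cacna2d1 minus Cacna2d3 (0.094) turned. With library medians centred, Scn3b was -0.017 and Cacna1e -0.0023, and with quantile normalization Scn3b was -0.0078. Neither Scn3b nor Cacna1e was called in these settings, and the pairs that turned did not pass with the GC trend removed. Of the genes that turned with the trend removed alone, Cacnb4, Clcn3 and Ano8 were called in that fit. Centring also called Scn4b (-0.24), Clcn2 (-0.12) and Clcn3 (-0.090) lower. It ended the calls of Cacna1d (0.047), Cacna1h (0.14) and Trpm2 (0.056), as did quantile normalization (0.044, 0.15 and 0.069). Under the Wilcoxon rank-sum test, Cacna1d and Cacna1h were not called.

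Leaving out 1 library in turn gave 10 to 13 higher and 9 to 10 lower channel genes, 1 to 2 higher sodium channel genes (2 without sham replicate 3) and 6 to 8 higher calcium channel genes. The calls and directions of 27 of the 37 genes held in each of these fits. Uncalled values that crossed 0 ran from -0.024 to 0.0031 for Scn2b, from -0.0057 to 0.070 for Scn3b, from -0.0050 to 0.066 for Scn1a minus Scn2a and from -0.042 to 0.021 for Cacna2d1 minus Cacna2d3.

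Samples share only a replicate number, not a mouse. Same-numbered libraries had correlations of -0.31 to 0.364 (4 of 10 over 0.1, 0 best with their own number). A replicate block, which also drops HF-HI replicate 11 as it has no sham of its number, gave 12 higher and 9 lower channel genes and 3498 called genes in the table, against 3674. Under the block Scn1a, Cacna1d and Cacna1h were not called, Trpm3 was, Scn2b was at 0.000176, the same as without HF-HI replicate 11 alone, and the pairs Cacna1h minus Cacna1g and Cacnb1 minus Cacnb4 did not pass. Without HF-HI replicate 11 alone, Cacna1d and Cacna1h were not called either, while the call of Scn1a held, Trpm3 was not called and both pairs passed. Depth is unknown, so its part in low values could not be weighed.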
